A study of Mus musculus with 16 samples.

Results

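A set of 8 genes of hepatic sugar handling were followed across 16 mouse liver arrays: Gckr, Pklr, Pfkfb1, Pfkfb3, Khk, Mlxipl, Txnip and Slc2a2. They were taken by name, as genes of glycolysis, fructose use and glucose sensing, with earlier results of these data known. Each was read from the probe set with the highest mean among those that carry its symbol alone. Of the 8 genes, 7 were measured, out of 18820 genes in all, and each of the 7 rested on 1 probe set. Pfkfb1, the liver form of the bifunctional enzyme that makes and breaks fructose 2,6-bisphosphate, is not analysed here. The livers came from fasted vanin-1 knockout (KO), fasted wild type (WT), fed KO and fed WT mice, with 4 arrays in each group. All mice were male, of C57Bl/6J background, 14 to 16 weeks old, singly housed and kept on standard chow. The fasted mice went without food for 24 h and the fed mice ate normally over that time. Vanin-1 is a membrane-bound enzyme that breaks down pantetheine, and the deletion is described in the labels only as a knockout, without a driver or tissue restriction. The labels give numbered replicates and do not say in words that each came from a separate animal, so the tests below cover the spread among arrays, which may be technical.

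After a meal, glucose enters hepatocytes through the transporter GLUT2, is phosphorylated and runs down glycolysis to pyruvate, while fructose enters the same path through ketohexokinase. Glucose metabolites activate ChREBP, a transcription factor that pairs with its partner MLX and binds carbohydrate response elements made of a pair of E-box-like sites with 5 bases between them, and the best known element of this kind lies in the promoter of liver pyruvate kinase. In fasting the liver turns from using glucose to making it.

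The deposited values were log2 intensities, and every level below is on that scale, where a difference of 1 is a doubling. A level is compared only within a probe set, never between genes. A difference was taken as a change where the p of limma, a linear model fitted over all 18820 genes and 16 arrays and adjusted by Benjamini-Hochberg over all genes, lay below 0.05. Vnn1, the targeted gene, had a level of 3.98 ± 0.30 in fasted KO and 10.81 ± 0.69 in fasted WT livers, and of 3.89 ± 0.12 in fed KO and 8.91 ± 1.61 in fed WT livers (SD, n = 4 each), with no overlap between genotypes. The summed level of 11 hepatocyte markers lay between 16.57 and 16.66 on all arrays. A pair of arrays stood apart. On fasted WT 4 the summed level of 11 pancreatic acinar markers was 12.17, against 7.63 to 7.89 on the other 15 arrays. On fed KO 4 the summed level of 16 acute phase genes was 16.66, against 15.58 to 16.00 elsewhere. Fed KO 4 gave the lowest fed KO value for 5 of the 7 genes. Fasted WT 4 gave the lowest fasted WT value for 3 of the 7 and the highest for 3. Without both arrays, all 7 genes again changed with fasting in KO livers, 5 did in WT livers (Gckr besides the 4 called with all arrays), and 0 passed between genotypes. The KO fasting differences were then -1.70 for Pklr, -0.66 for Khk, -0.52 for Gckr, -0.73 for Slc2a2, -1.03 for Pfkfb3, -0.64 for Mlxipl and 0.88 for Txnip.

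The promoters are shown first because the paired sites of carbohydrate response elements can be read directly in them. RefSeq (GRCm38.p6) promoters were available for all 8 genes, and the 250 bases before each annotated start were searched on both strands for 3 patterns. These were the E-box CACGTG, a palindromic pair (CACGNG, 5 bases of any kind and CNCGTG) and a direct pair (CACGNG, 5 bases of any kind and CACGNG). The letters of both pairs were chosen after these promoters had been read, so a match in Pklr or Txnip is a description. A sequence with 2 full E-boxes in the right spacing would match all 3 patterns. The 250 bases before the second annotated start of Pklr, chr3:89136373-89136622 on the plus strand, hold the palindromic pair at bases -170 to -154 from the start, shown in capitals.
Pklr, start 2: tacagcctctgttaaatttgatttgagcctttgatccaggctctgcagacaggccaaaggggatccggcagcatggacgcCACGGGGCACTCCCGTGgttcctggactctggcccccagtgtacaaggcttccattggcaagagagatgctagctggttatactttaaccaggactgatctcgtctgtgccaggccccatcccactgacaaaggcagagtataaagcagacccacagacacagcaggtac
The 250 bases before the start of Txnip, chr3:96557707-96557956 on the plus strand, hold the direct pair at bases -85 to -69, in capitals.
Txnip: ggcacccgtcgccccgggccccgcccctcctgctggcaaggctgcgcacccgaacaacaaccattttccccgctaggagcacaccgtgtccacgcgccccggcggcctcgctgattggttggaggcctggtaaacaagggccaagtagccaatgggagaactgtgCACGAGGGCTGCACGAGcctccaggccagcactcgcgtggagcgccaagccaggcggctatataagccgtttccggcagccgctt

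Single E-boxes, again in capitals, were present before 1 start each of Khk, Mlxipl and Pfkfb3. The stretch of Khk is chr5:30921476-30921505 (plus strand), that of Mlxipl chr5:135089780-135089809 (plus strand) and that of Pfkfb3 chr2:11502126-11502155 (minus strand).
Khk: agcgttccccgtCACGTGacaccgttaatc
Mlxipl, start 1: gcggctgccatcCACGTGctaaggagagaa
Pfkfb3, start 2: cacccttctctcCACGTGaaagggggctgg
None of the 3 patterns was found in the windows of Gckr, Slc2a2 or Pfkfb1, which says only that these letters are not in those windows. Over all 32851 RefSeq windows of this length, 6.02% held the E-box, 0.0396% the palindromic pair and 0.0457% the direct pair. The palindromic pair was found in 12 genes, 7 of them measured, and Pklr was the only one of the 7 that changed with fasting, in either genotype. The direct pair was found in 14 genes, 9 of them measured, and Txnip was the only one of the 9 that changed, in KO livers alone. Of all genes, 9.42% changed in KO and 7.61% in WT livers. Sets of 7 and 9 genes are too small to be compared with those shares. Across the measured genes with an E-box, 75 were higher and 73 lower of 1208 in fasted KO against fed KO livers, and 58 higher and 64 lower in fasted WT against fed WT livers. Over all genes tested, 4.53% were higher and 4.89% lower in KO, and 3.34% higher and 4.27% lower in WT livers.

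**Figure D1:**
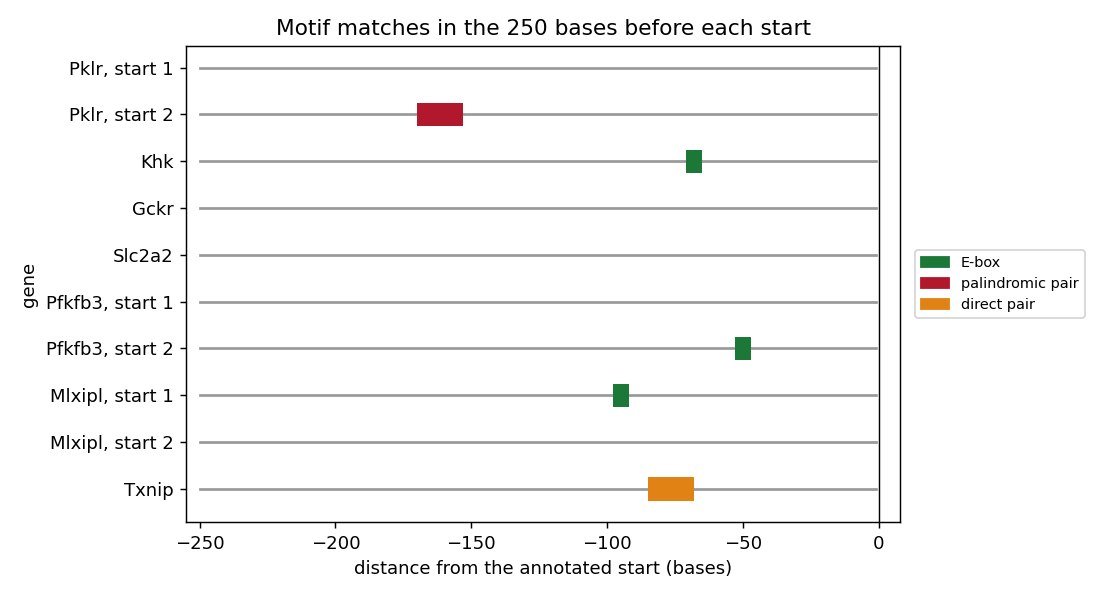
Position of pattern matches in the 250 bases before each annotated start, in bases from the start (horizontal axis), with 1 line per start. The palindromic pair of Pklr lies at -170 to -154 and the direct pair of Txnip at -85 to -69; Gckr and Slc2a2 have no match.

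Pklr encodes the pyruvate kinase of liver and red cells, which makes pyruvate in the last step of glycolysis. It fell with fasting in both genotypes. Its levels were 8.89, 8.78, 9.45 and 9.44 in fasted KO and 9.53, 9.12, 8.81 and 9.67 in fasted WT livers, on arrays 1 to 4. They were 10.60, 10.44, 11.49 and 10.04 in fed KO and 11.01, 10.72, 10.98 and 10.02 in fed WT livers. Every fasted array lay below every fed array, and the genotypes overlapped within each feeding state. The difference of fasted minus fed was -1.50 (2.83-fold lower, limma adjusted p = 0.00253) in KO and -1.40 (2.64-fold lower, adjusted p = 0.00607) in WT livers. Both calls were kept under all 26 alternative settings, which include leaving out each array in turn. The 1 probe set does not tell liver from red cell pyruvate kinase transcripts. Of 8 listed red cell markers 2 were measured, and their summed level was 9.13 to 9.69 in fasted KO, 9.27 to 9.54 in fasted WT, 10.07 to 10.29 in fed KO and 10.07 to 10.29 in fed WT livers. Alas2, the red cell enzyme that starts heme synthesis, carried most of that sum and fell with fasting in both genotypes. The other, Slc4a1, a membrane anion exchanger, averaged 4.82 in fasted KO, 4.95 in fasted WT, 4.83 in fed KO and 4.84 in fed WT livers and did not pass. Those means lay below the array medians of 5.19 to 5.29, so this probe set may not be able to show a fall. The part of red cells in the Pklr values was not tested. In bulk liver RNA, fewer cells of a type and less RNA per cell cannot be told apart.

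Khk encodes ketohexokinase, which phosphorylates fructose. It also fell with fasting in both genotypes, by a smaller amount. The levels were 10.65, 10.58, 10.34 and 10.56 in fasted KO and 10.43, 10.64, 10.49 and 10.78 in fasted WT livers. In fed livers they were 11.33, 11.01, 11.24 and 10.67 in KO and 11.22, 10.81, 11.11 and 11.04 in WT. Fasted and fed arrays did not overlap within a genotype, although fasted WT 4 lay above fed KO 4. The fasted minus fed difference was -0.53 (limma adjusted p = 0.0148) in KO and -0.46 (adjusted p = 0.0379) in WT livers, 1.445-fold and 1.38-fold lower. The KO call ended without fed KO 1 or fed KO 3, with an adjusted p of up to 0.0562 in limma. The WT call ended without fasted WT 1, 2 or 3 or fed WT 1, 3 or 4, with an adjusted p of up to 0.107, and it also ended with each array centred on its median (limma adjusted p = 0.0878).

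Gckr encodes a regulatory protein of hepatic glucose phosphorylation. Its level was 10.14, 10.27, 10.21 and 10.31 in fasted KO and 10.50, 10.33, 10.46 and 10.21 in fasted WT livers. In fed livers it was 10.76, 10.69, 10.79 and 10.28 in KO and 10.84, 10.60, 10.67 and 10.78 in WT. All fasted WT arrays lay below all fed WT arrays, and in KO livers 1 fed array, fed KO 4, lay within the fasted range. Among the genes that fell in KO livers, Gckr had the smallest difference. The difference was -0.40 (limma adjusted p = 0.0230) in KO livers, which is 1.32-fold lower, and -0.35 in WT livers, where it did not pass (adjusted p = 0.0553). The KO call ended without fasted KO 1 or 3 or fed KO 1, 2 or 3, with an adjusted p of up to 0.0812 in limma. In WT livers the difference passed under 8 of the 26 alternative settings.

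Slc2a2 encodes GLUT2, the transporter that carries glucose and fructose across the hepatocyte membrane. The levels were 10.27, 10.06, 10.81 and 10.52 in fasted KO and 10.66, 10.55, 10.29 and 10.60 in fasted WT livers. In fed livers they were 11.12, 11.01, 11.28 and 10.80 in KO and 11.26, 11.19, 11.43 and 10.73 in WT. The fasted and fed KO groups touched only at fasted KO 3 and fed KO 4, and the WT groups did not overlap. The difference of fasted minus fed was -0.64 in KO (1.56-fold lower, limma adjusted p = 0.0176) and -0.63 in WT livers (1.545-fold lower, adjusted p = 0.0246). The KO call ended without fasted KO 1 or 2 or fed KO 3 (limma adjusted p up to 0.0648), and the WT call without fasted WT 2 or 3 or fed WT 1, 2 or 3 (adjusted p up to 0.0776). Both calls also ended without the 3 arrays whose name ends in 2 (limma adjusted p = 0.0620 in KO and 0.0611 in WT livers).

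Pfkfb3 encodes a second form of the bifunctional enzyme, one that mainly makes fructose 2,6-bisphosphate and so speeds glycolysis. Its level was 5.95, 5.96, 6.17 and 6.65 in fasted KO and 6.02, 6.00, 5.54 and 6.85 in fasted WT livers. In fed livers it was 7.28, 6.68, 7.67 and 7.12 in KO and 5.98, 6.16, 7.35 and 6.27 in WT. Fed KO arrays lay above all fasted KO arrays, whereas fed WT arrays overlapped fasted WT arrays, with fed WT 3 standing above its group. These were the values closest to the array medians of 5.19 to 5.29 among the 7 genes. The fasted minus fed difference was -1.003 in KO livers (2.005-fold lower, limma adjusted p = 0.0428) and -0.34 in WT livers (adjusted p = 0.578). The KO call ended without any 1 of 8 arrays: fasted KO 1, 2 or 3, fasted WT 1 or 2, or fed KO 1, 3 or 4, with an adjusted p of up to 0.137 in limma. The call also ended without the 3 arrays whose name ends in 2, which are fasted KO 1, fed KO 4 and fed WT 2 (limma adjusted p = 0.183).

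Mlxipl encodes ChREBP. Its level was 10.04, 10.05, 10.10 and 9.76 in fasted KO and 10.21, 9.87, 9.59 and 9.27 in fasted WT livers. In fed livers it was 10.66, 10.63, 10.59 and 10.33 in KO and 10.69, 10.73, 10.60 and 10.97 in WT. All fasted arrays lay below all fed arrays, and the fasted WT arrays were the most spread. The 1 probe set gives a single level, so transcripts from start 1 and start 2 of Mlxipl were not told apart. Mlxipl fell with fasting in both genotypes, with a difference of -0.56 in KO livers (1.48-fold lower, limma adjusted p = 0.0283) and of -1.012 in WT livers (2.02-fold lower, adjusted p = 8.164e-04). The WT call was kept under all 26 alternative settings. The KO call ended without fasted KO 1 or 4 or fed KO 1, 2 or 3, with an adjusted p of up to 0.0961 in limma, and when the 3 arrays with a name ending in 2 were left out (adjusted p = 0.0635).

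Txnip encodes an arrestin-fold protein that binds thioredoxin and lowers glucose uptake, and it is itself a target of ChREBP and its relatives. It was the only one of the 7 genes with higher levels in fasted livers. They were 10.64, 10.73, 10.26 and 10.69 in fasted KO and 10.36, 10.97, 10.43 and 10.22 in fasted WT livers. In fed livers they were 9.30, 10.03, 9.75 and 9.31 in KO and 10.56, 10.22, 10.09 and 9.54 in WT. Every fasted KO array lay above every fed KO array, while the WT groups overlapped. Txnip rose with fasting in KO livers, with a difference of 0.98 (1.97-fold higher, limma adjusted p = 0.00636). In WT livers the difference was 0.39 and did not pass (adjusted p = 0.303). The KO call held when any 1 array was left out and ended without the 3 arrays whose name ends in 2 (limma adjusted p = 0.0724), which are fasted KO 1, fed KO 4 and fed WT 2.

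**Figure D2:**
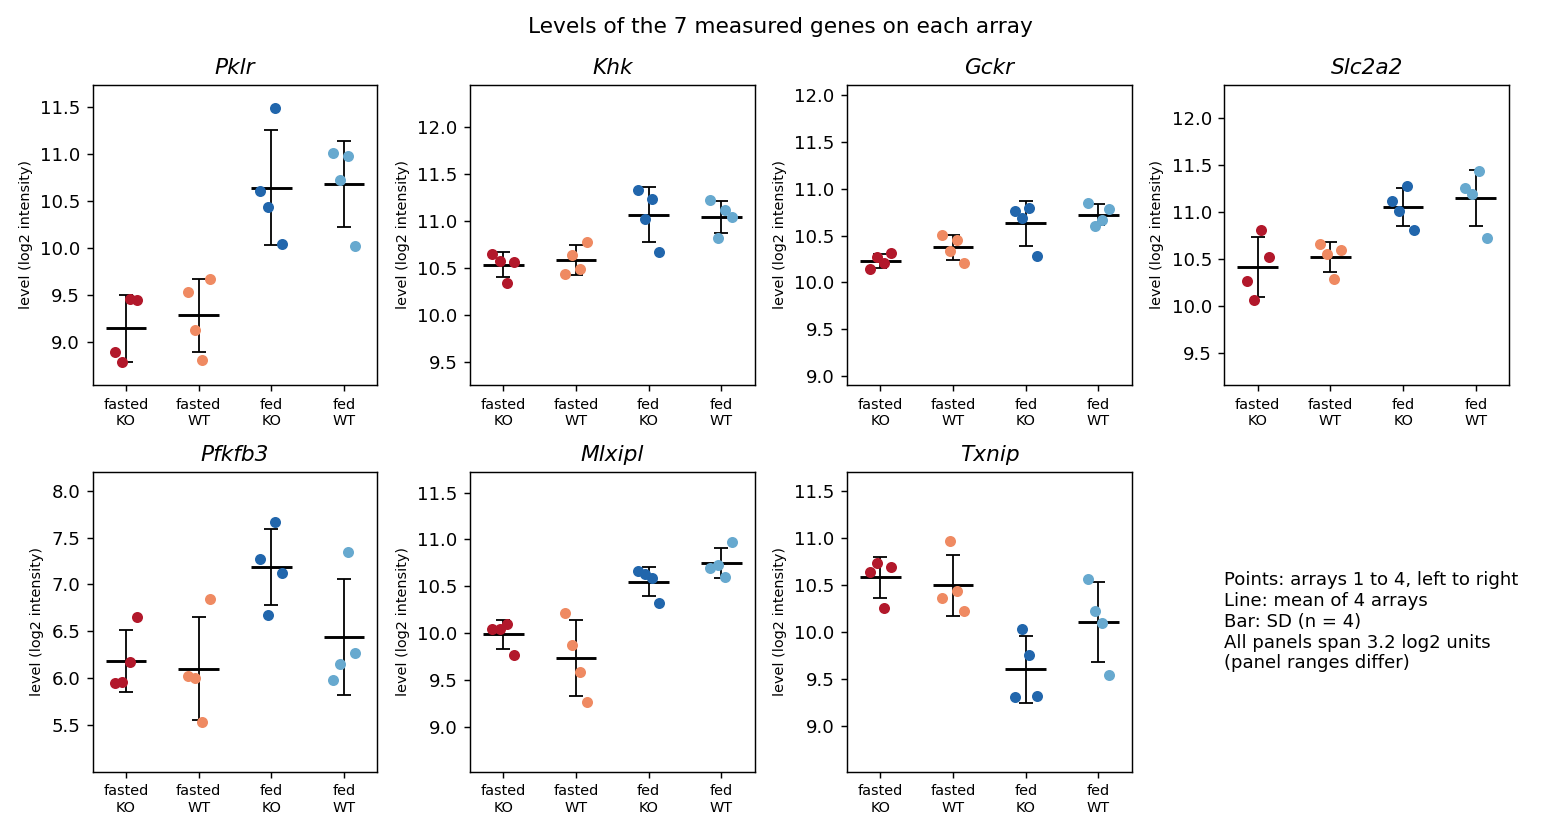
Levels of the 7 measured genes on each array (log2 intensity, vertical axis), by group, with points for arrays 1 to 4, a line at the mean and bars for the SD (n = 4); every panel spans 3.2 log2 units. Pklr and Mlxipl lie lower on every fasted array than on any fed one, Txnip lies higher on every fasted KO array than on any fed KO array, and its WT arrays overlap.

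In order of group means, fasted KO was lowest for Pklr (9.14 ± 0.36), Khk (10.53 ± 0.13), Gckr (10.23 ± 0.075) and Slc2a2 (10.41 ± 0.32). Fasted WT came next at 9.28 ± 0.39, 10.58 ± 0.16, 10.38 ± 0.13 and 10.52 ± 0.16. The fed KO means of these 4 genes were 10.64 ± 0.61, 11.06 ± 0.29, 10.63 ± 0.24 and 11.05 ± 0.20, and the fed WT means were 10.68 ± 0.46, 11.05 ± 0.17, 10.72 ± 0.11 and 11.15 ± 0.30. For Pfkfb3 the means were 6.18 ± 0.33 in fasted KO, 6.10 ± 0.55 in fasted WT, 7.19 ± 0.41 in fed KO and 6.44 ± 0.62 in fed WT livers. Mlxipl averaged 9.99 ± 0.15, 9.74 ± 0.40, 10.55 ± 0.15 and 10.75 ± 0.16 in the same order of groups, and Txnip 10.58 ± 0.22, 10.50 ± 0.33, 9.60 ± 0.35 and 10.10 ± 0.42. For all 7 genes the KO and WT arrays of one feeding state overlapped. Of all genes, 3.15% did not overlap between genotypes in fasted and 3.12% in fed livers, so overlap is common and says nothing particular about these genes.

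Fasting in KO livers lowered 6 of the 7 genes and raised 1, Txnip. Of all genes, 9.42% changed in this comparison, 4.89% lower and 4.53% higher. In WT livers 4 of the 7 genes were lower with fasting and none was higher, against a background of 7.61% of all genes changed, 4.27% lower and 3.34% higher. The 7 genes were chosen with earlier results of these data known. The shares of all genes are given as background and do not test the set. The WT background is 1432 genes, 629 higher and 803 lower, and it was 880 genes without fasted WT 4. After centring arrays on their medians the WT split was 1014 higher and 542 lower. The median difference of the 7 genes was -0.56 in KO and -0.46 in WT livers, while the median over all genes was 0.020 in KO and 0.011 in WT livers. The fasted and fed arrays did not overlap for 5 of the 7 genes in KO livers, against 17.0% of all genes, and for 5 of the 7 in WT livers, against 12.4%. Leaving out 1 array gave between 2 and 7 called genes in KO livers (2 without fed KO 3; 3 without fasted KO 1 or fed KO 1). In WT livers it gave between 2 and 5 (2 without fasted WT 2, fasted WT 3, fed WT 1 or fed WT 3). Averaged over both genotypes, a contrast added with the results known, all 7 genes changed, 6 lower and 1 higher, against 18.3% of all genes, 9.88% lower and 8.40% higher (1580 genes higher and 1860 lower, or 2426 and 1397 with each array centred on its median). Here Pklr differed by -1.45, Mlxipl by -0.79 and Txnip by 0.69, with limma adjusted p-values of 8.274e-05, 8.274e-05 and 0.00351. In this contrast the calls of 6 of the 7 genes were kept under all 26 alternative settings. The call of Pfkfb3 (limma adjusted p = 0.0349) was lost without any 1 of fasted KO 1, 2 or 3, fasted WT 1, 2 or 3, fed KO 1 or 3, or fed WT 3 (adjusted p up to 0.0768).

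**Figure D3:**
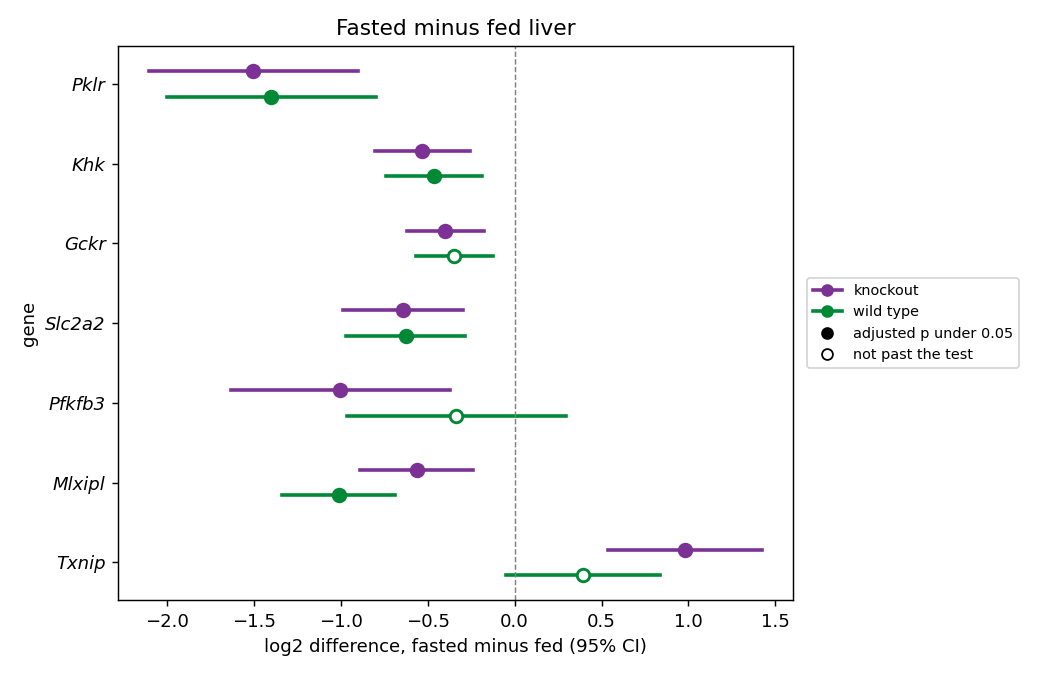
Fasted minus fed difference of the 7 genes in KO and WT livers (log2, horizontal axis), with 95% confidence intervals; filled points have an adjusted p under 0.05 in limma. All 7 KO points are filled, and 4 WT points, those of Pklr, Khk, Slc2a2 and Mlxipl.

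Markers of other cell types moved with fasting in part. Of 13 macrophage markers 1 fell in KO and 2 in WT livers, of 12 stellate cell and fibroblast markers 3 fell in KO and 2 in WT, and of 16 acute phase genes 3 fell in KO and 1 in WT. Of 9 neutrophil markers 1 rose in KO livers and 0 passed in WT. The share of all genes that fell was 4.89% in KO and 4.27% in WT livers, and the share that rose was 4.53% and 3.34%. At an unadjusted p under 0.05 there were 3 macrophage, 7 stellate or fibroblast and 10 acute phase genes in KO livers. In WT livers there were 8, 5 and 1. Of all 18820 genes, 4165 in KO and 3997 in WT livers had such a p. Averaged over both genotypes, 5 macrophage, 6 stellate or fibroblast and 4 acute phase genes fell, against 9.88% of all genes. The summed macrophage level was 12.28 to 12.91 in fasted KO, 12.42 to 12.93 in fasted WT, 12.73 to 12.92 in fed KO and 12.78 to 13.37 in fed WT livers. Of 11 hepatocyte markers 0 passed limma in KO livers (3 at an unadjusted p under 0.05) and 2 rose in WT livers. The part of these cells in the results was not tested.

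The array names carry a code, 05 or 07, on 2 arrays of each group, and what it stands for is not stated. Within each code the fasted minus fed difference had the same sign for all 7 genes in KO livers. In WT livers 6 genes kept their sign, and Pfkfb3 was -0.89 in code 05 and 0.21 in code 07. Pklr differed by -1.88 in code 05 and -1.13 in code 07 in KO livers, and by -1.83 and -0.97 in WT livers. The size also differed between codes for Khk. It was -0.79 in code 05 and -0.27 in code 07 in KO livers, and -0.71 and -0.22 in WT livers. In the same order of codes, Gckr in KO livers was -0.60 and -0.19, and Pfkfb3 in KO livers -1.41 and -0.60. Slc2a2 in WT livers was -0.87 and -0.39. In WT livers the size was larger in code 07 for Mlxipl (-0.75 and -1.28) and Txnip (0.072 and 0.72). With the code as a block the KO call of Pfkfb3 ended (limma adjusted p = 0.0523).

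None of the 7 genes passed the test between KO and WT livers in either feeding state. In fasted KO against fasted WT livers, 0 of the 7 passed limma, 0 had an unadjusted p under 0.05, and 0.0159% of all genes were called, which is 3 genes. An unadjusted p under 0.05 was found for 1033 of all 18820 genes in fasted and 1084 in fed livers. In fed KO against fed WT livers, 0 of the 7 passed and 2 had an unadjusted p under 0.05, with 0.00531% of all genes called, which is Vnn1 alone. The 2 were Pfkfb3, at 0.75 higher (95% interval 0.12 to 1.38, limma adjusted p = 0.8545), and Txnip, at -0.50 (95% interval -0.95 to -0.058, limma adjusted p = 0.8545). Within codes 05 and 07 the Pfkfb3 difference in fed livers was 0.81 and 0.69, and the Txnip difference -0.79 and -0.21. For Pklr the 95% interval of the difference reached from -0.74 to 0.46 in fasted and from -0.64 to 0.56 in fed livers. These data, with 4 arrays a group, do not exclude a difference inside those bounds. The interval of Khk was narrower, from -0.32 to 0.23 in fasted and from -0.26 to 0.29 in fed livers.

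The fasting responses of KO and WT livers were compared directly, as the KO response minus the WT response. None of the 18820 genes passed, which is 0% of all genes, and 924 had an unadjusted p under 0.05; of the 7 genes 0 did. The closest was Mlxipl, with a difference of 0.45 (95% interval -0.013 to 0.91, limma adjusted p = 0.948), since its fall was -0.56 in KO and -1.012 in WT livers. For Txnip it was 0.59 (95% interval -0.042 to 1.22, limma adjusted p = 0.948) and for Pfkfb3 -0.67 (95% interval -1.56 to 0.22, limma adjusted p = 0.948). The calls of Gckr, Pfkfb3 and Txnip in KO livers and not in WT livers therefore do not show a difference between the genotypes.

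**Figure D4:**
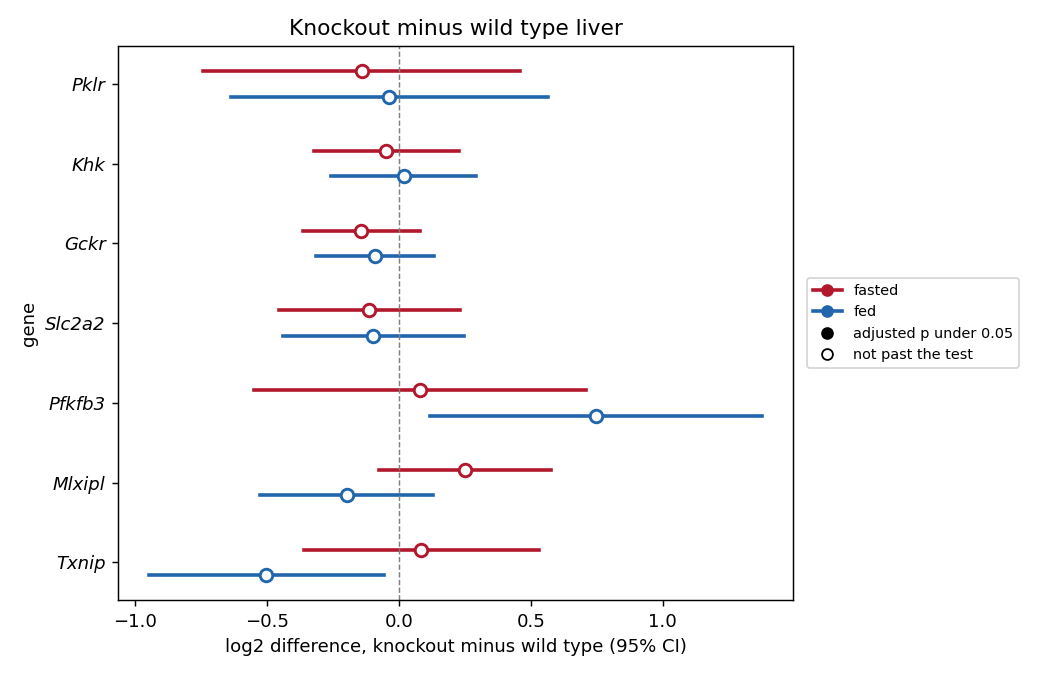
KO minus WT difference of the 7 genes in fasted and fed livers (log2, horizontal axis), with 95% confidence intervals; open points did not pass the adjusted test in limma. All 14 points are open, and the fed intervals of Pfkfb3 and Txnip do not include 0.

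The other genes of sugar handling were described from 8 lists, which hold 119 measured genes besides the 7. In KO livers 8 of the 119 rose and 17 fell with fasting, and in WT livers 9 rose and 16 fell, where 9.42% of all genes changed in KO and 7.61% in WT livers. None of the 119 passed limma between genotypes or in the difference of the responses, and at an unadjusted p under 0.05 there were 11 in fasted and 7 in fed livers and 5 in the difference. Of all 18820 genes, 1033, 1084 and 924 had such a p, in the same order. The ChREBP target list was the largest. Of its 27 measured genes, 4 rose and 9 fell in KO livers, with a median difference of -0.27, and 3 rose and 9 fell in WT livers, with a median of -0.28. The fall of Thrsp, a lipogenic cofactor, was -3.91 in KO and -2.64 in WT livers (limma adjusted p = 0.00035 and 0.00970), and Fasn, fatty acid synthase, differed by -1.68 and -1.71 (adjusted p = 0.00123 and 0.00166). Thrsp and Fasn were chosen after their values were seen. Acly, which makes cytosolic acetyl-CoA, differed by -1.42 in KO and -1.08 in WT livers, and Insig1, a brake on sterol synthesis, by -2.12 and -1.63. The genes of this list that rose were Fgf21, a fasting hormone of the liver, Pnpla2, a triglyceride lipase, and G6pc, the last enzyme of glucose output, in both genotypes, and Mttp, which loads lipid onto lipoproteins, in KO livers. Fgf21 rose by 2.20 in KO and 1.47 in WT livers (limma adjusted p = 3.595e-07 and 2.833e-05) and Pnpla2 by 0.99 and 0.74. The calls named here for Thrsp, Fasn, Acly, Insig1, Fgf21, Pnpla2, G6pc and Mttp held when any 1 array was left out. ChREBP activity was not measured, and its part in the values of this list was not tested.

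Among 22 measured glycolytic enzymes, 2 rose and 2 fell in KO livers, and 3 rose and 1 fell in WT livers. Aldoa, a fructose bisphosphate aldolase of many tissues, rose by 0.69 in KO livers (limma adjusted p = 0.00167), and the WT difference was 0.41 (adjusted p = 0.0567). Aldoc, a related aldolase, fell by 1.08 in KO and by 0.71 in WT livers, where the call ended without fasted WT 1, 2 or 4 or any 1 fed WT array (limma adjusted p up to 0.0979). Ldha, a lactate dehydrogenase subunit, rose in both genotypes, by 0.48 in KO and 0.41 in WT livers. Its KO call ended without fasted KO 1, fed KO 1 or fed KO 3 (limma adjusted p up to 0.0588) and its WT call without any 1 of 11 arrays: fasted KO 2, 3 or 4, fasted WT 1, 2 or 3, fed KO 2 or 3, or fed WT 1, 3 or 4 (adjusted p up to 0.126). Hk2, a hexokinase of muscle and fat, fell by 0.45 in KO livers. That call was lost without fasted KO 1, 3 or 4 or fed KO 3 or 4 (limma adjusted p up to 0.0718). The group means of Hk2 were 4.69 to 5.14, below the array medians of 5.19 to 5.29. Eno3, an enolase, and Pfkfb2, the heart form of the bifunctional enzyme, rose in WT livers by 0.27 and 0.62. Their KO differences were 0.16 and 0.45 and did not pass. Each of the WT calls ended without any 1 of 8 arrays. For Eno3 these were fasted KO 3 or 4, fasted WT 1, 2 or 3, fed KO 1 or fed WT 2 or 3 (limma adjusted p up to 0.114), and for Pfkfb2 fasted KO 2, 3 or 4, fasted WT 3 or 4 or fed WT 1, 2 or 4 (adjusted p up to 0.150).

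Of 8 measured fructose and sorbitol enzymes, 1 fell in KO livers, the mitochondrial aldehyde dehydrogenase Aldh1b1, by 1.07. The call ended without fasted KO 1, 3 or 4 or fed KO 1, 3 or 4 (limma adjusted p up to 0.110). In WT livers 0 passed, with 3 at an unadjusted p under 0.05. Of all 18820 genes, 4165 in KO and 3997 in WT fasting had such a p. The WT difference of Aldh1b1 was -0.76 (limma adjusted p = 0.1525). Tkfc, which phosphorylates the glyceraldehyde made from fructose, differed by -0.28 in KO and -0.13 in WT livers and did not pass. Of 19 measured sugar transporters other than GLUT2, 0 passed in KO livers (4 at an unadjusted p under 0.05). In WT livers 1 passed, the urate and sugar carrier Slc2a9, at -0.37. Its KO difference was -0.35 (limma adjusted p = 0.0517). The Slc2a9 call ended without any 1 of 13 arrays, the exceptions being fasted WT 1, fed KO 2 and fed KO 4 (limma adjusted p up to 0.158). Of 8 partners and relatives of ChREBP, 1 fell in KO livers, Mxd1, a MAX-binding repressor, by 0.40, a call lost without fasted KO 1 or fed KO 1, 2 or 3 (limma adjusted p up to 0.107), and 0 passed in WT livers (2 at an unadjusted p under 0.05). Mlx, the ChREBP partner, differed by -0.18 in KO and 0.021 in WT livers and its relative Mlxip by 0.29 and 0.28, and neither passed.

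Of 16 thioredoxin and arrestin-fold genes other than Txnip, Arrdc3 fell in both genotypes, with differences of -1.74 in KO and -2.08 in WT livers (limma adjusted p = 4.725e-04 and 2.430e-04). Arrdc3 is an arrestin-fold relative of Txnip, and its direction was opposite to that of Txnip. Another relative, Arrdc4, had differences of 0.092 in KO and 0.53 in WT livers, which did not pass (limma adjusted p = 0.848 and 0.135). Ddit4, a stress-induced inhibitor of mTORC1, rose by 1.67 in WT livers (limma adjusted p = 0.0101) and the KO difference was 0.45 (adjusted p = 0.525). Of 9 pentose phosphate enzymes, 1 rose and 3 fell in KO livers (median -0.35) and 3 fell in WT livers (median -0.32). Rpe, the ribulose phosphate epimerase, fell in both, by 0.35 in KO and by 0.32 in WT livers, and its calls and those of Arrdc3 in both genotypes, and of Ddit4 in WT livers, held when any 1 array was left out. Tkt and Taldo1, the enzymes of the reversible branch, fell by 0.51 and 0.41 in KO livers, and Pgls, the lactonase, rose by 0.36. The WT differences of Tkt and Pgls were -0.37 and 0.20 and did not pass. The Tkt call ended without fasted KO 1 or 2 or fed KO 1 or 3 (limma adjusted p up to 0.0834), the Taldo1 call without fasted KO 2, fed KO 3 or fed KO 4 (up to 0.0752) and the Pgls call without fasted KO 3 or fed KO 3 (up to 0.0568). In WT livers Taldo1 fell by 0.39 and Pgd, which makes NADPH, by 0.54. The KO difference of Pgd was -0.50 (limma adjusted p = 0.0589). The Taldo1 call ended without fasted WT 1, 2 or 3 or fed WT 1 or 3 (limma adjusted p up to 0.103). The Pgd call ended without any 1 of 11 arrays, the exceptions being fasted KO 2, fasted WT 4, fed KO 2, fed KO 3 and fed WT 3 (adjusted p up to 0.136).

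Of 15 transcription factors of liver sugar genes, Srebf1, which drives lipogenic genes under insulin, fell with fasting, at -2.06 in KO and -2.37 in WT livers (limma adjusted p = 5.627e-06 and 3.791e-06), calls that held without any 1 array. Foxo1, an insulin-restrained activator of glucose production, rose by 0.40 in KO and 0.53 in WT livers. The Foxo1 call in KO livers ended without fasted KO 1, 2 or 4 or fed KO 3 or 4 (limma adjusted p up to 0.102). Hnf4a, a hepatocyte master regulator, rose by 0.23 in WT livers, a call lost without any 1 of 13 arrays, the exceptions being fasted WT 1, fed KO 4 and fed WT 3 (limma adjusted p up to 0.123).

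**Figure D5:**
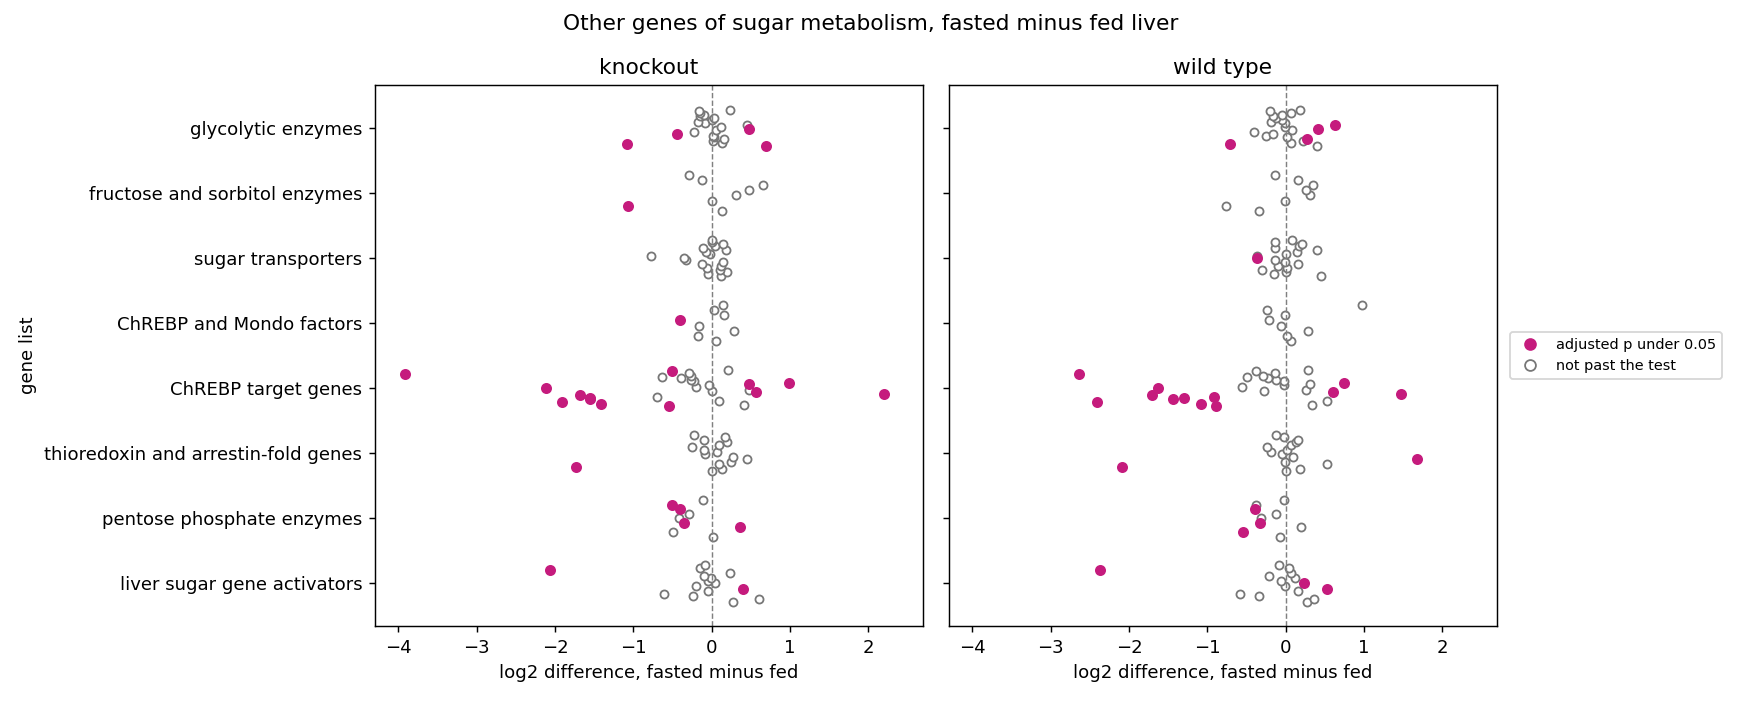
Fasted minus fed differences of the 119 measured genes of 8 sugar lists in KO and WT livers (log2, horizontal axis). Each point is a gene in a list, and Slc2a5, Gpd1, Tkfc, Tkt and Arrdc4 are drawn in each list that holds them. Filled points have an adjusted p under 0.05 in limma. The falls of the ChREBP target genes reach -3.91 in KO and -2.64 in WT livers, and Arrdc3 lies at -1.74 and -2.08.

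Genes whose levels ran closest to each of the 7 were found by the root mean square (RMS) difference of levels, each centred on its own mean, over the 16 arrays. For Pklr they were Mmab (0.369), Fasn (0.384) and Sucnr1 (0.386). For Mlxipl they were Afm (0.147), Nqo2 (0.154) and Actn1 (0.164), and for Txnip Cda (0.249), Ppp2r2d (0.251) and Dnmbp (0.252). Khk ran closest to Tmem14c (0.107), Pecr (0.117) and Haao (0.138), and Slc2a2 to Pold2 (0.140), Lrig3 (0.145) and Gbe1 (0.162). Gckr ran closest to Gstm1 (0.101), Pipox (0.106) and Unc93b1 (0.107), and Pfkfb3 to Rrm2 (0.2996), Kcnk5 (0.316) and Slc25a44 (0.360). The values are RMS differences on the log2 scale, and a gene with a small change has many near neighbours by this measure.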

How the data were processed

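Liver RNA from 16 samples was hybridised to whole-transcript arrays. Per the submitters' processing notes, the authors deposited log2 intensities made by RMA, which covers background correction, normalisation and summary of each probe set. No source used here names the software version or the genome build of the array. From the 35556 probe sets, 21218 with exactly 1 gene symbol in the annotation table were used (1881 had several symbols and 12457 were not in the table), and the probe set with the highest mean represented a gene, giving 18820 genes. Dim genes were kept, and array medians lay between 5.19 and 5.29. The number of arrays limits the precision.

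A mean per group was fitted with limma 3.58.1 in R 4.3.3 to all 16 arrays, with empirical Bayes moderation and two-sided tests, with Benjamini-Hochberg adjustment across the 18820 genes. The procedure was tested on simulated arrays. The comparisons were KO against WT in each feeding state, fasting in KO and in WT livers, and KO response minus WT response. The genes followed, the lists, the tests and the contrast averaged over genotypes were chosen with earlier results of these data known. Named list genes were up to 4 per list with the smallest adjusted p in fasting, and the 3 nearest genes of each followed gene. Thrsp, Fasn, G6pc, Mttp, Eno3, Pfkfb2, Pgd, Tkfc, Mlx, Mlxip and Arrdc4 fall outside that rule. Marker sums are log2 of summed intensities. Promoter sequences and names came from RefSeq GRCm38.p6, matched by Entrez ID for 18790 genes.

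Alternatives were median centring, quantile normalisation, a filter at the 30th percentile, averaged probe sets, a trended prior, only the groups compared, blocks for the title number and the code 05 or 07 in the array name, fits without the 3 arrays whose name ends in 2 (the meaning of code and ending is not known here) and without fasted WT 4 with fed KO 4, and leaving out each array.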

Additional observations from a re-analysis of the deposited data

Results flagged for a closer look

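In groups of 4 arrays, 7 values of the sugar genes lay far from the other 3 of their group. Chance flags about 1 in 20 groups, and 156 groups were looked at. Aldoc was 8.08 on fed WT 4 and 7.76 to 7.78 on the other fed WT arrays. Insig1 was 11.06 on fed WT 3 and 11.55 to 11.60 on the other fed WT arrays. Mxd1 was 6.31 on fasted KO 1 and 6.70 to 6.73 on the other fasted KO arrays. Elovl6, a fatty acid elongase, was 9.42 on fasted KO 2 and 9.67 to 9.72 on the others of its group. Acly was 9.12 on fasted WT 1 and 8.98 to 9.00 on the others. Srebf1 was 6.85 on fasted WT 3 and 7.13 to 7.18 on the others. G6pc was 12.12 on fed KO 3 and 12.39 to 12.44 on the others. None of the 7 genes followed here had such a value.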

How the results depend on the processing

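Over 10 alternative settings other than leaving out 1 array, the genes called among the 7 numbered 3 to 7 in KO fasting (3 without the 3 arrays whose name ends in 2, 7 with all arrays) and 3 to 5 in WT fasting. Leaving out 1 array gave 2 to 7 in KO fasting, 2 to 5 in WT fasting and 0 in every comparison of genotypes. Without those 3 arrays KO fasting called 964 genes, against 1772, and single omissions gave 1216 to 1861. WT fasting called 829 genes, against 1432, when only its own groups were fitted, and single omissions gave 880 (without fasted WT 4) to 1608. In fasted KO against fasted WT livers 1 gene was called without the 3 arrays and 1 without fasted WT 4 and fed KO 4. Single omissions gave 1 (without fasted WT 2) to 5 (without fasted WT 1 or fasted KO 2). In fed KO against fed WT livers 2 genes were called with median centring, 2 with a trended prior, 0 with only the groups compared and 0 without the 3 arrays, and single omissions gave 1 to 3 (3 without fed KO 1). The difference of responses had 0 to 1 called genes (1 without fasted KO 3). The causes were not tested.

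Signs turned only among KO against WT values and differences of responses that had not passed limma. Without fasted WT 4 and fed KO 4, Khk was 0.016 and Txnip -0.007 in fasted livers, and Gckr was 0.027 and Pklr 0.16 in fed livers, where Pklr was 0.18 without the 3 arrays. With 1 array left out, fasted KO minus fasted WT reached from -0.099 to 0.016 for Khk, from -0.11 to 0.33 for Pfkfb3, from -0.24 to 0.0062 for Slc2a2 and from -0.007 to 0.24 for Txnip. Fed KO minus fed WT reached from -0.14 to 0.027 for Gckr, from -0.071 to 0.15 for Khk and from -0.32 to 0.16 for Pklr. The difference of responses reached from -0.17 to 0.0018 for Gckr, from -0.20 to 0.023 for Khk, from -0.30 to 0.18 for Pklr and from -0.15 to 0.13 for Slc2a2.

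The title numbers did not pair the arrays. Same-numbered arrays of different groups deviated from their group means with correlations of -0.22 to 0.21, and 3 of 16 arrays correlated best with their own number. With the number as a block, 7 of the 7 genes were called in KO fasting and 3 in WT fasting, where Khk had a limma adjusted p of 0.0571. No other call among the 7 genes changed.

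Of the list genes named above, the fit without the 3 arrays also ended the KO calls of Hk2, Aldh1b1, Foxo1 and Taldo1. In WT it ended those of Aldoc, Eno3, Pfkfb2, Pgd, Hnf4a and Taldo1. Signal over background was not measured, and 4 arrays a group limit what can be detected.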
